A study of Mus musculus with 3 samples.

Results

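Macrophages with few MHC class II transcripts were described in the flexor digitorum longus (FDL) tendon of the mouse, from single-cell RNA sequencing (scRNAseq) in which every transcript molecule was counted as a unique molecular identifier (UMI). Cells were chosen by their UMI counts alone. Barcodes with 1000 to 5000 genes and at most 10% mitochondrial UMIs were kept, and a kept cell was taken as a macrophage with at least 10 UMIs of *C1qa*, *C1qb* and *C1qc* together, at least 5 of *Tyrobp* and *Fcer1g*, and fewer than 10 of the tenocyte genes *Tnmd*, *Fmod*, *Kera* and *Cilp2*. Macrophages with fewer than 20 UMIs of *H2-Aa*, *H2-Ab1* and *H2-Eb1* together were called MHC class II low, and those with 20 or more MHC class II high. This gave 1832 MHC class II low macrophages among 1987 macrophages and 19709 kept cells. They made up 92.2% of the macrophages and 9.30% of the kept cells.

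The study asked how the loss of Scleraxis-lineage tendon cells compares with ageing, and sequenced 1 library per group from 16 pooled FDL tendons. The 6 M WT library came from Scx-Cre-; DTR F/+ mice and the 6 M DTR library from Scx-Cre+; DTR F/+ mice, both given 5 daily injections of diphtheria toxin (DT) at 3 months of age and harvested 3 months later; the labels give 3 months as their age. In the Cre+ mice, Cre expressed under Scleraxis control switches on the diphtheria toxin receptor in every cell of that lineage, in tendon and elsewhere, so that DT removes these cells. The 21 M B6 library came from mice aged 21 months, with the genotype given as C57/Bl6, that received no DT. The labels give the strain C57BL/6J for all 3 libraries. Tissue was digested for 120 min in 6 M WT and for 90 min in 6 M DTR and 21 M B6, so that digestion time and group cannot be told apart in any comparison with 6 M WT, while 6 M DTR and 21 M B6 shared it. Of 43706 distinct barcodes 202 occurred in 2 libraries, 1 of them among the MHC class II low macrophages. Where 3 values are given together, they belong to 6 M WT, then 6 M DTR, then 21 M B6. The libraries held 148149903, 123918145 and 92707026 UMIs, and the MHC class II low macrophages 8232011, 13158362 and 6086791 of them. Without replicate libraries, no difference between groups could be tested, and the intervals given are exact 95% intervals that cover counting error only.

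Resident macrophages of connective tissues take up debris and matrix fragments through scavenger receptors and supply complement C1q and growth factors. One broad kind carries *Lyve1*, a hyaluronan receptor, *Folr2*, the folate receptor beta, *Mrc1*, the mannose receptor, and often *Cd163*, the receptor for haemoglobin bound to haptoglobin, with little MHC class II. Another carries much MHC class II for antigen presentation, and in many tissues is renewed from blood monocytes, which enter through the chemokine receptor *Ccr2*.

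Most macrophages had no MHC class II UMI or almost none, and few lay around the limit. No UMI of the 3 genes was found in 66.7%, 49.8% and 70.6% of the MHC class II low macrophages. The median was 0, 1 and 0 UMIs per cell, against 255, 73 and 159 in the MHC class II high macrophages. These counts set the classes and are a description. Only 39 cells lay just inside the limit, with 10 to 19 UMIs, and 32 just outside, with 20 to 39 UMIs. Summed over the libraries, the cells just inside held *Lyve1* at 237 UMIs per 1000000 UMIs of the class (CPM), *Folr2* at 184, *Mrc1* at 618 and *Ccr2* at 261 CPM. The cells just outside held *Lyve1* at 183, *Folr2* at 106, *Mrc1* at 633 and *Ccr2* at 146 CPM. *Cd163* was lower inside, at 29.6 CPM, than outside, at 108 CPM. Most cells on both sides came from 6 M DTR, with 30 cells inside and 22 outside. By library *Lyve1* was at 154, 281 and 120 CPM inside and at 26.4, 76.4 and 573 CPM outside. Its direction thus differed in 21 M B6, which had 7 cells inside and 8 outside.

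**Figure D1:**
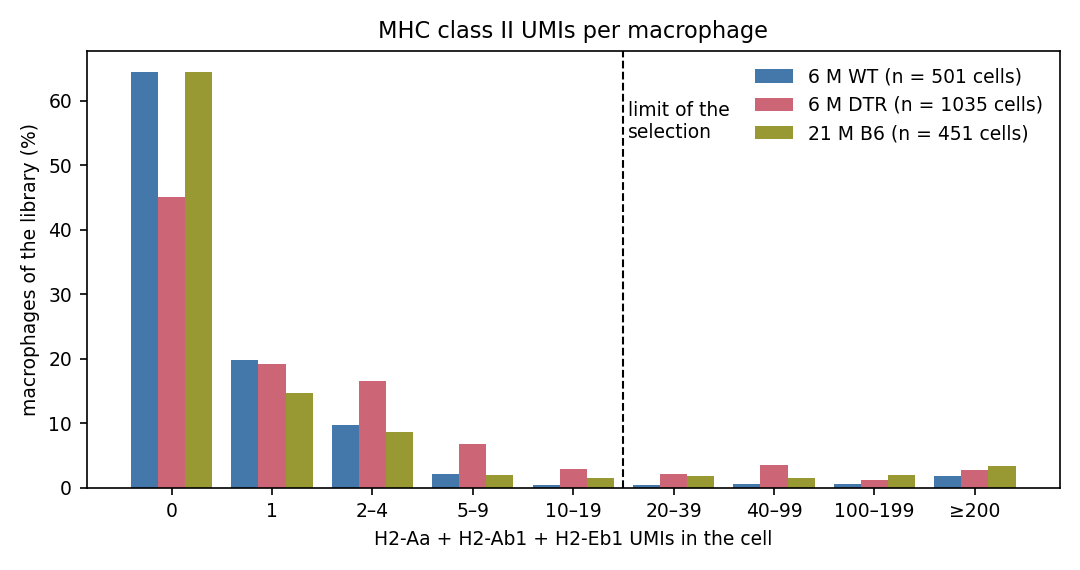
Share of the macrophages of each library (vertical axis, %) by the number of H2-Aa, H2-Ab1 and H2-Eb1 UMIs in the cell (horizontal axis, bins of unequal width); bars are coloured by library and the dashed line marks the limit of 20 UMIs. The bin of 0 UMIs holds 64.5%, 45.0% and 64.5% of the macrophages in the order of the legend, and the 2 bins beside the limit hold the fewest cells left of 40 UMIs in each library.

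In 6 M WT, 484 of 501 macrophages were MHC class II low, while 6 M DTR had 936 of 1035 and 21 M B6 had 412 of 451. The shares were 96.6% (94.6 to 98.0), 90.4% (88.5 to 92.2) and 91.4% (88.4 to 93.8). The 6 M WT interval did not overlap those of the other libraries, which overlapped each other. As a share of all kept cells, MHC class II low macrophages were 5.79% (5.30 to 6.31), 14.3% (13.4 to 15.2) and 8.59% (7.81 to 9.42), so that they were most frequent in 6 M DTR. Fewer other cells and more macrophages cannot be told apart in a share. Among cells called male by their sex-linked transcripts, the share of macrophages in the MHC class II low class was 96.4%, 91.2% and 96.2%, and among those called female it was 97.0%, 88.3% and 89.5%.

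The cells carried macrophage transcripts that the rule had not used. *Csf1r*, the receptor for the macrophage growth factor CSF1, was at 774, 695 and 1012 CPM in the MHC class II low macrophages, and at most at 3.65 CPM in tenocytes. *Adgre1*, which encodes F4/80, was at 205, 178 and 233 CPM. Tenocytes here are the kept cells with at least 10 UMIs of the 4 tenocyte genes and fewer than 10 of C1q. Transcripts of lymphocytes and mast cells were close to absent. The 6 T cell genes summed to 0.243, 10.1 and 1.81 CPM, with *Cd3d*, *Cd3g* and *Trac* at 0 outside 6 M DTR. The 4 B cell genes summed to at most 1.64 CPM, and the 4 mast cell genes to at most 0.657 CPM, with *Cpa3* at 0 in every library. Among 8 monocyte genes, *Ly6c2*, *Plac8* and *Chil3* had no UMI in any library, and the list's sum of 736, 936 and 273 CPM was led by *Fn1*, fibronectin, at 716, 842 and 255 CPM, which tenocytes hold too. Among 6 neutrophil genes the sums were 35.2, 8.21 and 10.8 CPM, and *Ly6g* was at 0 in every library. The 10 tenocyte genes outside the rule summed to 295, 264 and 141 CPM, against 36934, 30952 and 21291 CPM in tenocytes, so these transcripts were present in the macrophages at a low level in every library.

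All 4 resident genes were detected in these cells, and 3 of them were higher in MHC class II low than in MHC class II high macrophages of the same library. *Lyve1* was at 1183, 688 and 1739 CPM in the MHC class II low class, and at 40.2, 21.2 and 308 CPM in the MHC class II high class. The low class was above the high class in each library, by a log2 fold change of 3.59 ± 0.32 (SE, 3 libraries), with an adjusted p of 3.66e-07 (edgeR quasi-likelihood test, Benjamini-Hochberg). *Folr2* was at 297, 264 and 457 CPM against 18.6, 32.4 and 115 CPM, a log2 fold change of 2.47 ± 0.23 with an edgeR adjusted p of 5.82e-07. *Mrc1* was at 757, 633 and 895 CPM against 266, 304 and 574 CPM, a smaller log2 fold change of 0.78 ± 0.14 with an edgeR adjusted p of 0.00104. *Cd163* did not follow them. It was at 167, 55.6 and 311 CPM in the low class and at 127, 71.4 and 224 CPM in the high class, below in 6 M DTR and above in the other libraries, with a log2 fold change of -0.11 ± 0.18 and an edgeR adjusted p of 0.794. Its sign turned without the scaling described next, to 0.16. Without a term for the library in the fit, *Lyve1*, *Folr2* and *Mrc1* kept their direction and lost the call, with edgeR adjusted p of 0.105, 0.0558 and 0.239.

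**Figure D2:**
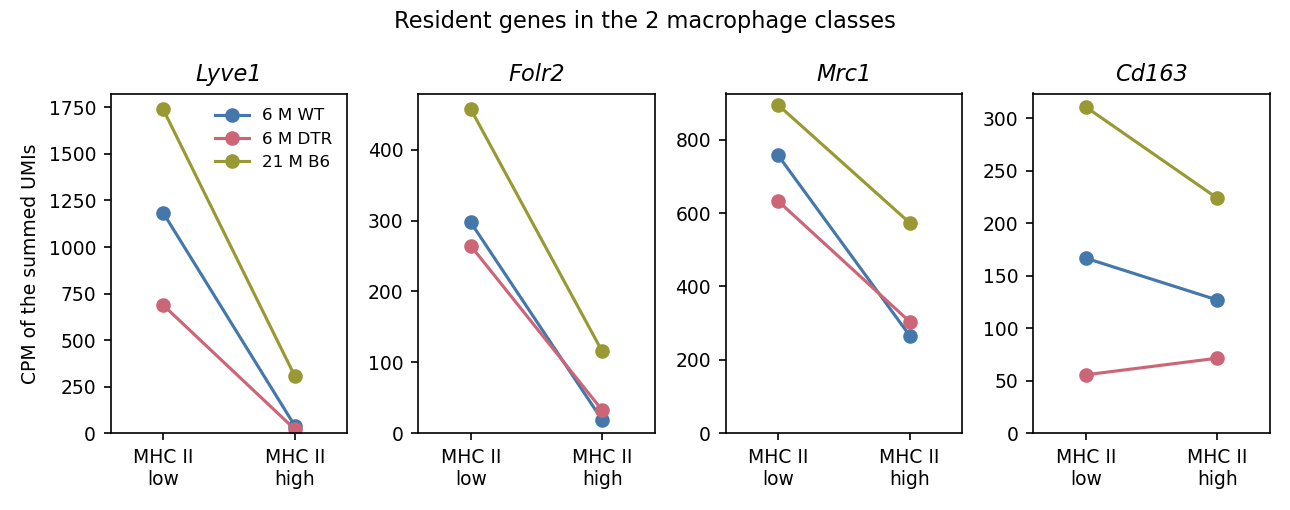
Level of Lyve1, Folr2, Mrc1 and Cd163 (vertical axis, CPM of the UMIs summed over the cells of a class, from 0) in MHC class II low and MHC class II high macrophages; each line joins the 2 classes of 1 library. Every line falls from left to right for Lyve1, Folr2 and Mrc1, while for Cd163 the 6 M DTR line goes from 55.6 up to 71.4 CPM.

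The comparison of the 2 classes over all genes was made with edgeR on the UMI sums of each class in each library, with the library as a term. The genes of the rule were left out of it, yet the classes were split on UMIs of the same cells, and the 3 libraries are 3 different groups rather than replicates, so that a p-value here measures how alike the difference was in the 3 groups. The MHC class II high sums rest on 17, 99 and 39 cells. Of 10137 genes, 429 were higher in the low class, which is 4.23%, and 731 were lower, which is 7.21%. This balance depends on the scaling. With scaling by the total of UMIs in place of the trimmed mean of M-values (TMM), the median over all genes moved by 0.26 on the log2 scale, and 1128 genes were higher and 420 lower. The difference between classes is therefore relative to the median gene, and the direction of changes smaller than this shift depends on the scaling.

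Of the 14 resident and scavenger receptor genes, 11 were tested, and 8 were higher in the low class and none lower. Their median log2 fold change was 1.60, against 0.05 over all genes tested, and it was 1.87 without TMM, with 9 higher. Without 21 M B6 the median was 1.26, with 8 higher and 1 lower. *Vsig4*, a complement receptor of tissue macrophages, had the largest change of the list at 4.50 ± 0.35, which lost the call without the library term (edgeR adjusted p = 0.125), where 2 genes of the list were called, and was at 111, 28.3 and 479 CPM in the low class against 0, 0 and 24.5 CPM in the high class. *F13a1*, the A subunit of coagulation factor XIII, was at 1105, 959 and 1901 CPM against 121, 173 and 339 CPM (log2 2.40 ± 0.14). *Stab1*, a scavenger receptor, and *Cbr2*, a carbonyl reductase, had log2 fold changes of 1.60 ± 0.22 and 1.66 ± 0.23. *Timd4*, a receptor for phosphatidylserine on dying cells, was at 22.1, 5.78 and 73.6 CPM in the low class and at 61.9, 39 and 12.2 CPM in the high class, so that its direction differed between the libraries, and its log2 fold change of -1.14 ± 0.57 had an edgeR adjusted p of 0.24. *Marco* and *Clec4f* had no UMI in the low class of any library.

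Of 14 transcription factors, receptors and other genes of macrophage identity, 6 were higher in the low class and 1 lower, with a median log2 fold change of 0.27. Without the library term 1 was called higher and 0 lower. The largest of them was *Maf*, a transcription factor of resident macrophages, at 355, 317 and 520 CPM against 46.4, 114 and 99.7 CPM (log2 1.85 ± 0.20). *Csf1r*, *Pf4*, *Itgam* and *Mertk* had log2 fold changes of 0.61, 0.68, 0.64 and 0.94. *Aif1* was the gene lower in the low class, by a log2 fold change of -1.11 ± 0.17. *Gas6*, a bridge between dying cells and the receptor tyrosine kinases of macrophages, was at 284, 261 and 418 CPM against 37.1, 53.5 and 114 CPM (log2 1.99 ± 0.18), and was the 1 gene called higher among 9 tested genes of efferocytosis, 2 of which were lower (*Axl* and *Cd300lf*). Without TMM, 5 were higher and 2 lower, and leaving out a library gave 0 or 1 lower. Among complement genes outside the rule, *C4b*, complement component 4, was higher in the low class, at a log2 fold change of 1.80 ± 0.40, and *Cfp*, properdin, was lower, at -1.01 ± 0.21, and no complement gene was called without the library term.

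Lysosomal genes differed by small amounts. Of 14, 6 were higher in the low class, led by the progranulin gene *Grn* at 0.85 ± 0.15 and legumain, *Lgmn*, at 0.61 ± 0.14, and 2 were lower, the cathepsins *Ctsz* at -1.13 ± 0.12 and *Ctsc* at -0.51 ± 0.14. Without TMM the counts were 10 and 1, with DESeq2 2 and 1, without 6 M WT 1 and 1, and without the library term 0 and 1. *Fermt2*, the integrin activator kindlin-2, and *Serpinb6a*, a protease inhibitor, were also among the genes of largest change. *Fermt2* was at 230, 92.0 and 101 CPM in the low class against 6.19, 26.4 and 5.25 CPM in the high class (log2 2.56 ± 0.35), and *Serpinb6a* at 396, 313 and 406 CPM against 24.7, 89.9 and 80.4 CPM (log2 2.14 ± 0.24). Both were abundant in tenocytes too, where *Fermt2* was at 230, 289 and 212 CPM and *Serpinb6a* at 308, 361 and 302 CPM. For *Fermt2* tenocytes were level with the low class in 6 M WT and above it in the other libraries. For *Serpinb6a* they were above it in 6 M DTR only. The part of tenocyte transcripts in these differences was not tested, and 10 or more UMIs of 5 fibroblast genes were found in 6.61%, 5.56% and 3.64% of the low class.

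Among called genes with at least 50 CPM, the 4 largest increases in the low class belonged to haemoglobin genes, from 4.86 for *Hba-a2* to 5.39 for *Hbb-bs*, and rested on 15 cells. Haemoglobin summed to 4566, 4304 and 5799 CPM in the low class against 21.7, 227 and 38.5 CPM in the high class. Cells with 50 or more haemoglobin UMIs numbered 4 of 484, 8 of 936 and 3 of 412 in the low class and 0 of 17, 0 of 99 and 0 of 39 in the high class, and in the low class they held 99.3%, 94.9% and 99.5% of its haemoglobin UMIs. Without such cells the level was 33.9, 222 and 28.8 CPM in the low class, and none of the 4 genes was called in edgeR, with log2 fold changes from -0.55 to -0.14.

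Class II genes of antigen presentation and some of the class I genes were lower in the low class. The 5 tested class II genes outside the rule were all lower, and since the classes were split on their partner genes this is a description. *Cd74*, the invariant chain, was at 53.3, 152 and 86.9 CPM in the low class against 18373, 13373 and 14295 CPM in the high class. The peptide loading genes *H2-DMa* and *H2-DMb1* had log2 fold changes of -3.69 ± 0.24 and -4.59 ± 0.19, and *Ciita*, the regulator of class II transcription, of -5.16 ± 0.52. Of 11 class I genes, 6 were lower and none higher, by much less, and the peptide transporter genes *Tap1* and *Tap2* were among those not called, at -0.72 and 0.01. *H2-K1* had a log2 fold change of -0.65 ± 0.11 and *B2m*, the shared light chain, of -0.43 ± 0.10, and 4 of the 6 calls were left without TMM.

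Of 7 tested dendritic cell genes, 6 were lower in the low class, against 3 of 6 without 6 M DTR and 3 of 7 without the library term, with *Ccr7*, the receptor for migration to lymph nodes, at -5.55 ± 0.69, *Itgax*, CD11c, at -4.02 ± 0.40 and *Flt3*, the growth factor receptor of dendritic cells, at -3.15 ± 0.65. Their summed level was 47.9, 40.4 and 78.2 CPM in the low class and 223, 187 and 157 CPM in the high class, with *Irf4* the most abundant in the low class. The part of dendritic cells in the high class was not tested. *Ccr2* was at 18.1, 93.4 and 16.8 CPM in the low class against 285, 213 and 220 CPM in the high class (log2 -3.11 ± 0.37), and neither it nor *Fn1*, the 2 monocyte genes tested, was called without the library term. *Mgl2*, a lectin of dendritic cells and activated macrophages, was at 31.3, 16.7 and 41.1 CPM against 529, 181 and 254 CPM (log2 -3.65 ± 0.22).

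Genes of inflammation were mostly lower in MHC class II low macrophages. Of 11 tested cytokines and mediators, 8 were lower and 1, *Csf2*, was higher, at 129, 29.7 and 0.164 CPM against 0, 12.6 and 0 CPM, and of 15 tested chemokines, 11 were lower and none higher. Without TMM these counts were 7 and 1 for the cytokines and 8 and 3 for the chemokines, and without the library term 3 cytokines and 4 chemokines were lower. The call of *Csf2* was lost with DESeq2, with a mitochondrial limit of 5%, without the library term, without 6 M WT, without 6 M DTR and without macrophages of 10 or more fibroblast UMIs. *Il1b*, interleukin-1 beta, was at 736, 492 and 26.1 CPM in the low class against 3864, 4335 and 876 CPM in the high class (log2 -3.71 ± 0.31, and not called without the library term, with an edgeR adjusted p of 0.132). *Il10*, an anti-inflammatory cytokine, was lower as well, with 32.3, 59.6 and 28.8 CPM against 95.9, 417 and 238 CPM (log2 -2.84 ± 0.22). *Ptgs2*, the cyclooxygenase COX-2, had a log2 fold change of -3.28 ± 0.18. *Cxcl2*, a neutrophil attractant, was abundant in both classes, at 31245, 29198 and 11898 CPM in the low class and at 49332, 44476 and 21944 CPM in the high class. *Ccl17* and *Ccl5*, chemokines that draw T cells, were far lower in the low class, with *Ccl17* at 0, 0.988 and 0.329 CPM in the low class and 127, 750 and 115 CPM in the high class, where 3 of 17, 8 of 99 and 1 of 39 cells had a *Ccl17* UMI at 3000 UMIs, and *Ccl5* at 0.364, 19.1 and 8.38 CPM against 1033, 375 and 85.7 CPM. Of 10 tested interferon response genes, 6 were lower, among them *Isg15* at 73.9, 98.2 and 122 CPM against 885, 423 and 192 CPM. Without the library term 3 of the 10 were lower, and without 6 M DTR 3 were and their median log2 fold change went from -1.51 to -0.70.

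The remaining genes named for the largest decreases were *Slpi*, *Serpinb2*, *Flrt3*, *Cytip* and *Il7r*. *Slpi*, a secreted inhibitor of neutrophil proteases, was at 659 CPM in the high class of 6 M WT but at 7.27 CPM in that of 6 M DTR, so its log2 fold change of -6.60 ± 0.87 had the widest error of the 20 genes named by size. *Il7r*, the interleukin-7 receptor, was at 29.6, 73.9 and 6.74 CPM against 480, 305 and 206 CPM (log2 -3.76 ± 0.35). *Flrt3*, a membrane adhesion protein, was at 19.2, 53.9 and 12.7 CPM against 563, 393 and 852 CPM (log2 -4.79 ± 0.39). *Serpinb2*, an inhibitor of plasminogen activators, and *Cytip*, a regulator of leukocyte adhesion, had log2 fold changes of -5.69 ± 0.39 and -3.84 ± 0.21.

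**Figure D3:**
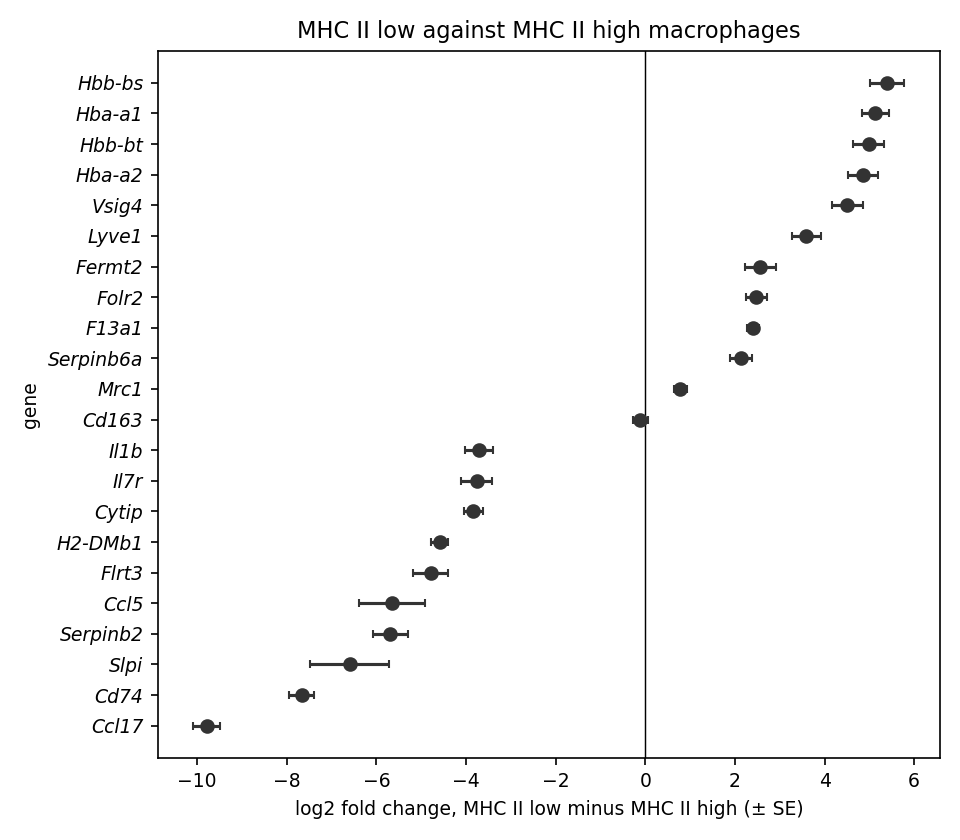
Difference between MHC class II low and MHC class II high macrophages (horizontal axis, log2 fold change in the edgeR fit over 3 libraries, with bars of ± 1 SE) for the 10 genes highest and the 10 lowest of those called with at least 50 CPM on average, and for Mrc1 and Cd163. The 4 haemoglobin genes lie at the top, from 4.86 to 5.39, and rest on 15 cells, Cd163 lies at -0.11 and Ccl17 lies lowest.

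The resident genes varied among the cells of 1 library. Each cell was thinned to 3000 UMIs, which left out 3, 3 and 0 MHC class II low macrophages, and at that depth *Lyve1* was found in 64.7% (60.2 to 68.9), 44.2% (40.9 to 47.4) and 87.9% (84.3 to 90.9) of them. *Folr2* was found in 49.1% (44.5 to 53.6), 41.5% (38.3 to 44.7) and 68.2% (63.5 to 72.7). *Mrc1* was found in 78.2% (74.2 to 81.8), 67.1% (64.0 to 70.1) and 82.5% (78.5 to 86.1), and *Cd163* in 23.3% (19.6 to 27.3), 8.79% (7.05 to 10.8) and 38.8% (34.1 to 43.7). For each of the 4 genes the order was 21 M B6 above 6 M WT above 6 M DTR. The intervals of the libraries were apart for *Lyve1* and *Cd163*, while 6 M WT overlapped 21 M B6 for *Mrc1* and, narrowly, 6 M DTR for *Folr2*. Before thinning the shares for *Lyve1* were 80.2%, 57.2% and 94.7%, at median depths of 16434, 13234 and 13906 UMIs per cell. Tenocytes, which should lack these genes, held *Lyve1* in 0.489%, 0.537% and 1.19% of cells at the same depth and median depths of 13168, 12786 and 11563 UMIs before thinning, and each of the other 3 genes in at most 0.501%.

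The genes were partly found in the same cells. At 3000 UMIs all 4 were found in 9.15%, 2.89% and 23.3% of MHC class II low macrophages, and none of them in 7.48%, 17.6% and 1.70%. *Folr2* was found in 62.1% of the *Lyve1*-positive and 25.3% of the *Lyve1*-negative cells of 6 M WT. The same shares were 61.4% and 25.7% for 6 M DTR, and for 21 M B6 they were 73.5% and 30.0%. Across cells of 1 library, which share their preparation and are no replicates, Spearman's rho of *Lyve1* and *Folr2* was 0.447 (n = 481), 0.407 (n = 933) and 0.273 (n = 412). *Cd163* and *Folr2* were nearly unrelated, at 0.085, 0.057 and 0.027. *Cd163* and *Lyve1* were at 0.158, 0.076 and 0.081, and *Cd163* was found in 26.7% of the *Lyve1*-positive and 17.1% of the *Lyve1*-negative cells of 6 M WT.

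Between the libraries, the MHC class II low macrophages of 6 M DTR had less of the resident transcripts than those of 6 M WT and those of 21 M B6 had more. Both comparisons share the 6 M WT cells. *Lyve1* was 0.581-fold (0.565 to 0.598) in 6 M DTR, while 21 M B6 was at 1.47-fold (1.43 to 1.51), both relative to 6 M WT. *Folr2* was 0.889-fold (0.844 to 0.936) and 1.54-fold (1.46 to 1.62), *Mrc1* 0.836-fold (0.809 to 0.864) and 1.18-fold (1.14 to 1.23), and *Cd163* 0.333-fold (0.304 to 0.365) and 1.86-fold (1.74 to 2). Between the 2 libraries digested for 90 min, 21 M B6 was 2.53-fold above 6 M DTR for *Lyve1*, 1.73-fold for *Folr2*, 1.41-fold for *Mrc1* and 5.59-fold for *Cd163*. Cells called female were 68.3%, 39.3% and 64.3% of the MHC class II low macrophages with a sex call. In female cells *Lyve1* was at 1254, 899 and 1746 CPM and in male cells at 1060, 647 and 1831 CPM. *Folr2* of 6 M DTR was nearly level with 6 M WT within a sex, at 312, 310 and 452 CPM in female and 257, 253 and 479 CPM in male cells.

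**Figure D4:**
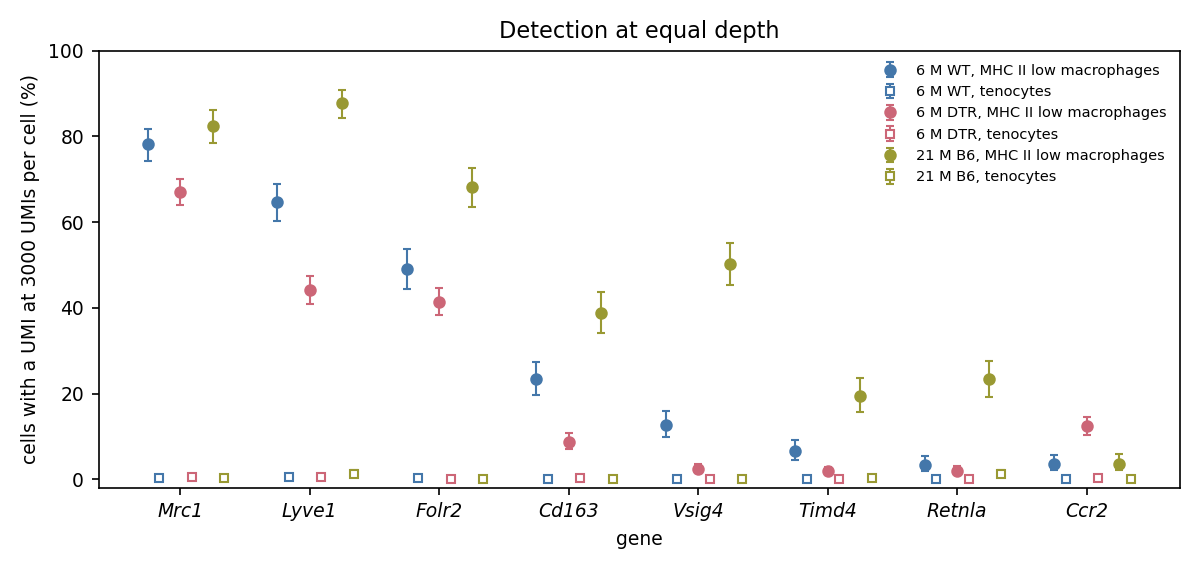
Share of cells with at least 1 UMI of a gene after thinning to 3000 UMIs per cell (vertical axis, %, with exact 95% intervals for counting error), for MHC class II low macrophages (filled circles) and tenocytes (open squares) of each library. The 21 M B6 circles lie highest for the 7 genes other than Ccr2, the 6 M DTR circle lies highest for Ccr2 at 12.3%, and the tenocyte squares lie near 0.

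More genes differed from 6 M WT in 21 M B6 than in 6 M DTR. Among 2986 genes with at least 50 CPM in either library, 16 were at least 2-fold higher in 6 M DTR, which is 0.536%, and 25 were at most 0.5-fold, which is 0.837%. Among 3061 genes, 99 were at least 2-fold higher in 21 M B6, which is 3.23%, and 100 were at most 0.5-fold, which is 3.27%. Of the 14 resident and scavenger receptor genes, 10 reached 50 CPM in 6 M DTR or 6 M WT, and 0 were at least 2-fold higher and 2, *Vsig4* and *Cd163*, at most 0.5-fold, with a median log2 ratio of -0.28 against -0.03 over all genes. In 21 M B6, 11 reached that level, and 3 were at least 2-fold higher and 0 at most 0.5-fold, with a median of 0.78 against -0.09. *Vsig4* spanned a wide range, at 111, 28.3 and 479 CPM, and was found at 3000 UMIs in 12.7%, 2.47% and 50.2% of cells. *Timd4* was found in 6.65%, 1.82% and 19.4%, and *Cbr2* was at 126, 102 and 334 CPM.

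In 6 M DTR, the MHC class II low macrophages had more transcripts of *Ccr2*, a monocyte receptor, and of 3 genes of the lipid handling list. *Ccr2* was at 93.4 CPM against 18.1 CPM in 6 M WT, a ratio of 5.16 (4.35 to 6.16), and was found in 12.3% (10.3 to 14.6) of cells at 3000 UMIs against 3.53% (6 M WT, 2.07 to 5.60) and 3.64% (21 M B6, 2.05 to 5.93). It was higher in female cells, at 61.5 against 6.89 CPM, and in male cells, at 104 against 46.8 CPM. *Fabp5*, a fatty acid binding protein, had the largest ratio, with 110 CPM against 9.96 CPM, or 11.0-fold (8.82 to 13.9). Its levels were 58.3 against 11.0 CPM in female and 132 against 5.30 CPM in male cells. *Apoe*, apolipoprotein E, was at 1728 against 420 CPM, 4.11-fold (3.97 to 4.26), and *Spp1*, osteopontin, at 933 against 252 CPM, 3.70-fold (3.53 to 3.88). In female cells *Apoe* was at 1316 against 495 CPM, and in male cells at 1718 against 233 CPM. *Spp1* was at 425 against 160 CPM in female and at 1217 against 468 CPM in male cells. Of the 12 lipid handling genes, these 3 were the ones at least 2-fold higher among 10 that reached 50 CPM, and none was at most 0.5-fold. The median log2 ratio of the 10 was 0.43, against -0.03 over all genes. *Cd74* was at 152 against 53.3 CPM, with 709 of its 2006 UMIs in 6 M DTR in the 30 cells just inside the MHC class II limit, and the median of MHC class II UMIs was higher in 6 M DTR too. *Mpeg1*, the macrophage pore protein perforin-2, was at 64.2 against 21.1 CPM, *Flrt3* at 53.9 against 19.2 CPM, and *Hilpda*, a lipid droplet protein, at 52.4 against 20.04 CPM. Some of these differences were also seen in the MHC class II high class. There *Apoe* was at 2227 CPM in 6 M DTR against 142 CPM in 6 M WT, and *Spp1* at 893 against 176 CPM. *Fabp5* was at 68.7 against 24.7 CPM in that class, while *Ccr2* went the other way, at 213 against 285 CPM.

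Several of these genes are abundant in tenocytes, and their levels there are given beside them. *Spp1* was at 3496, 5375 and 713 CPM in tenocytes and at 252, 933 and 34.8 CPM in the macrophages, in the same order. *Aspn*, the matrix protein asporin, was at 547, 1866 and 1393 CPM in tenocytes and at 13.4, 56.7 and 43.0 CPM in the macrophages. *Coch*, cochlin, with the lowest ratio of 6 M DTR to 6 M WT, was at 12047, 2919 and 5104 CPM in tenocytes and at 70.2, 13.9 and 20.4 CPM in the macrophages. *Emb*, the membrane protein embigin, was at 107, 154 and 97.4 CPM in tenocytes and at 7.17, 52.8 and 9.36 CPM in the macrophages. The part of tenocyte transcripts in these ratios was not tested. *Fabp5*, *Ccr2* and *Mpeg1* were at most at 6.43, 1.23 and 0.518 CPM in tenocytes, below their level in the macrophages of each library.

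Lower in 6 M DTR were several cytokines and *Retnla*, which was the 1 gene at most 0.5-fold of 2 alternative activation genes that reached 50 CPM. *Il1a*, interleukin-1 alpha, was at 347 CPM against 1185 CPM in 6 M WT, 0.293-fold (0.283 to 0.304). *Tnf* was at 1868 against 3760 CPM, 0.497-fold (0.489 to 0.505), and *Retnla*, a secreted marker of alternatively activated macrophages, at 18.8 against 78.0 CPM, 0.242-fold (0.208 to 0.280). *Retnla* was found at 3000 UMIs in few cells, 2.04% (1.23 to 3.16) against 3.33% (1.91 to 5.35), and these intervals overlapped. *Csf2*, the growth factor GM-CSF, was at 29.7 against 129 CPM and was found at 3000 UMIs in 2.04% against 3.95% of cells, but cells called female held 18.96 against 192 CPM and cells called male 37.4 against 29.2 CPM, so that its direction differed by sex. *Ch25h*, cholesterol 25-hydroxylase, was at 49.6 against 156 CPM. *Dcbld2*, *Ildr2* and *Plpp1* completed the 10 lowest ratios, at 0.294, 0.329 and 0.347. Of 7 inflammatory cytokines at 50 CPM, 3 were at most 0.5-fold and 0 at least 2-fold higher, and of 12 chemokines none passed either limit.

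In 21 M B6, the MHC class II low macrophages had much less of several inflammatory transcripts than in 6 M WT. *Il1b* was at 26.1 CPM against 736 CPM, 0.0355-fold (0.0301 to 0.0415), and was found at 3000 UMIs in 4.61% of cells, against 24.9% (6 M WT) and 20.3% (6 M DTR). *Il1a* was at 130 against 1185 CPM, 0.110-fold (0.102 to 0.118). *Csf2* had 1 UMI in all 412 cells, against 1066 in the 484 cells of 6 M WT, where 3.95% of cells had one at 3000 UMIs. *Tnf* was at 1511 against 3760 CPM and *Cxcl2* at 11898 against 31245 CPM. Of 7 inflammatory cytokines at 50 CPM, 5 were at most 0.5-fold and 1, *Il6*, at least 2-fold higher, with a median log2 ratio of -1.34 against -0.09 over all genes. *Il6* was more abundant in tenocytes, at 125, 81.1 and 438 CPM. Of 14 chemokines, 4 were at most 0.5-fold and 3 at least 2-fold higher, among them *Ccl6* at 227 against 77.9 CPM. Relative to 6 M DTR, with the same digestion time, *Il1b* was 0.053-fold, *Il1a* 0.374-fold, *Cxcl2* 0.407-fold and *Tnf* 0.809-fold. In that comparison 4 of 7 inflammatory cytokines were at most 0.5-fold and 1 at least 2-fold higher, with a median log2 ratio of -1.05. Of 14 chemokines, 3 were at most 0.5-fold and 2 at least 2-fold higher, with a median of 0.001. The median over all genes was -0.07.

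Other genes low in 21 M B6 were *Bcl2a1a*, a survival factor of the BCL2 family, at 7.72 against 90.9 CPM, *Edn1*, endothelin-1, at 23.3 against 211 CPM, and *Slc7a11*, the cystine transporter, at 16.3 against 129 CPM. *Bcl2a1a* has near-identical copies whose reads may be split between them. *Spp1* was at 34.8 against 252 CPM, *Acp5*, the tartrate-resistant acid phosphatase of osteoclasts and macrophages, at 27.8 against 166 CPM, *Malt1*, a signalling protease, at 19.7 against 116 CPM, and *Angptl2*, an angiopoietin-like protein, at 7.72 against 50.9 CPM. *Spp1*, *Slc7a11* and *Angptl2* were at 713, 80.6 and 86.9 CPM in tenocytes of 21 M B6, against 3496, 332 and 98.9 CPM in those of 6 M WT. Among 6 osteoclast genes, *Ctsk*, cathepsin K, was the most abundant in 21 M B6, at 182 CPM against 112 CPM.

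Higher in 21 M B6 were *Retnla* and heat shock genes. At least 2-fold higher were 2 of 3 alternative activation genes and 1 of 5 complement genes at 50 CPM, the latter *C4b*. *Retnla* had the largest ratio, at 1230 CPM against 78.0 CPM (6 M WT) and 18.8 CPM (6 M DTR), or 15.8-fold (14.5 to 17.1) over 6 M WT. It was found at 3000 UMIs in 23.3% (19.3 to 27.7) of cells against 3.33% (1.91 to 5.35) and 2.04% (1.23 to 3.16), and in 1.29% of tenocytes of 21 M B6. Cells of each sex had it, at 1514 CPM in female and 1052 CPM in male cells. The MHC class II high class was at 662, 17.2 and 2933 CPM, above the low class outside 6 M DTR (log2 -1.84 ± 0.34), from 1 of 17, 3 of 99 and 8 of 39 cells with a *Retnla* UMI at 3000 UMIs. *C4b* was at 114 against 12.3 CPM, and at 76.1 against 10.7 CPM in tenocytes. *Ednrb*, an endothelin receptor, was at 88.6 against 11.4 CPM. *Apoe* was at 1745 against 142 CPM in the high class. In the low class it was at 1829 against 420 CPM, 4.35-fold (4.19 to 4.52), at a level close to the 1728 CPM of 6 M DTR. *Hspa1b* and *Hspa1a*, inducible heat shock proteins, were at 899 against 169 CPM and at 1264 against 333 CPM. Of 12 heat shock genes at 50 CPM, 4 were at least 2-fold higher and none at most 0.5-fold. In tenocytes of 21 M B6 these 2 were high as well, at 868 against 63.7 CPM and at 960 against 69.4 CPM. *Has1*, hyaluronan synthase 1, was at 116 against 12.1 CPM and *Gfpt2*, an enzyme of hexosamine synthesis, at 51.1 against 9.96 CPM, both below their levels in tenocytes of 887 and 356 CPM. *Polr2l*, a subunit of RNA polymerase II, was at 125 against 27.9 CPM.

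Measures of RNA quality moved with 21 M B6. The median of mitochondrial UMIs in MHC class II low macrophages was 5.77%, against 2.99% (6 M WT) and 3.12% (6 M DTR). *Gm42418*, a transcript that overlaps ribosomal RNA, was at 45374 CPM against 9888 and 9124 CPM, and at 49425 against 13791 CPM in tenocytes. With a limit of 5% mitochondrial UMIs, 129 MHC class II low macrophages were left in 21 M B6, 87.8% of 147 macrophages. At that limit 67 of the 99 genes at least 2-fold higher in 21 M B6 than in 6 M WT still were, and 76 of the 100 at most 0.5-fold. The part of *Gm42418* in the differences was not tested.

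**Figure D5:**
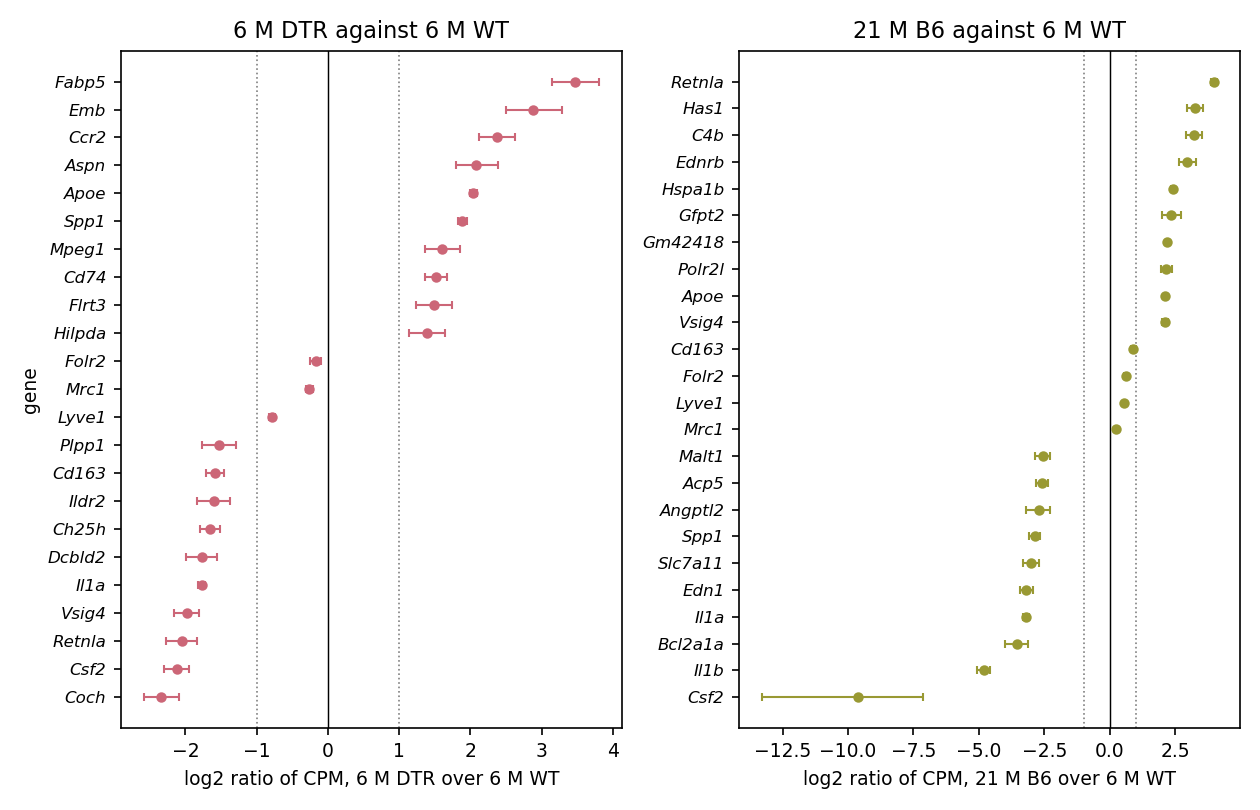
Ratio of CPM in MHC class II low macrophages (horizontal axes, log2, with exact 95% intervals for counting error) of 6 M DTR over 6 M WT on the left and 21 M B6 over 6 M WT on the right, for the 10 highest and 10 lowest ratios of genes that reached 50 CPM, and for the 4 resident genes. Dotted lines mark 2-fold; the horizontal scales of the panels differ, Fabp5 and Retnla lie at the top and the wide interval of Csf2 on the right rests on 1 UMI in 21 M B6.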

How the data were processed

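The authors deposited filtered UMI count matrices of 32285 genes, 1 per library, from 10x Genomics 3′ libraries. The matrix headers name Cell Ranger 6.0.1 and the submitters' processing notes Cell Ranger 2.1.1; the genome build of the files is not given in the sources used here. The matrices hold 15536, 16099 and 12273 barcodes (6 M WT, then 6 M DTR, then 21 M B6). The cell limits were applied to the deposited counts, and all columns could be matched to a library (0 unmatched). The members and gene lists were chosen with earlier results of these data known. Shares have exact (Clopper-Pearson) 95% intervals and ratios of CPM exact conditional binomial ones; UMIs of 1 library are no replicates, so both cover counting error only. MHC class II low and high sums were compared with edgeR 4.0.16 (TMM, filterByExpr, glmQLFit and glmQLFTest, library as a term, adjusted p below 0.05), without the 12 genes of the rule. On simulated counts for this comparison, over 9950 genes, 92% of 100 genes changed by 1 on the log2 scale and 100% of those changed by 2 were recovered. The simulation gave every gene the same dispersion and changed only genes with at least 50 CPM, so recovery in the real sums was not measured. There were 7 false calls in all. Named genes were the rule genes and resident genes, examples from the 29 lists, the 10 highest and 10 lowest called changes with at least 50 CPM and 1 direction in 3 libraries, and the 10 highest and 10 lowest ratios between libraries at 50 CPM. Doublets were kept; the automatic threshold of Scrublet (scanpy 1.11.5) called 0, 4 and 0 of the MHC class II low macrophages, too few to be used. Alternatives covered the cell limits, doublet scores, DESeq2 1.42.0, the low count filter, the library term, left-out libraries, scaling, the CPM minimum and thinning depth. They also covered cells of each sex, haemoglobin and fibroblast transcripts, all chosen after seeing the data. Also chosen then were library size scaling, the doublet score cut and, for the comparison of the classes, the 5% mitochondrial limit. Some genes of the lists are not reported here by name.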

Additional observations from a re-analysis of the deposited data

Results flagged for a closer look

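For 3 of the named genes with at least 50 CPM on average the ratio of CPM in MHC class II low over MHC class II high macrophages went opposite ways in the libraries, by at least 1.5-fold each way with counting intervals that exclude 1. *Fabp5*, a fatty acid binding protein, was at 1.60 in 6 M DTR against 0.402 in 6 M WT and 0.124 in 21 M B6. *Il1rn*, the interleukin-1 receptor antagonist, was at 1.56 in 6 M WT against 0.456 in 6 M DTR and 0.271 in 21 M B6. *Ccl6*, a chemokine, was at 1.57 in 6 M DTR against 0.400 in 6 M WT and 0.450 in 21 M B6. *Timd4*, below 50 CPM on average, was at 0.357, 0.148 and 6.01 (6 M WT, then 6 M DTR, then 21 M B6). These differences were not tested, and the 6 M WT high class holds 17 cells.

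Cells that met the macrophage rule and the MHC class II limit also occurred among barcodes outside the cell limits. Over the mitochondrial limit there were 7 (6 M WT), 16 (6 M DTR) and 32 (21 M B6), with *Lyve1* at 1634, 1337 and 1505 CPM. Over the gene limit there were 57, 48 and 31, with *Lyve1* at 712, 601 and 2663 CPM.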

How the results depend on the processing

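Each group has 1 library, the MHC class II high class is small, and the sums of a library share its preparation, which limits what the counts can show. For the comparison of groups, no paired analysis was possible because each group has 1 library; the classes were paired within a library by the library term. The planned use of Scrublet's doublet calls was not run, since its threshold called almost no cells. The cause of the changes below was not tested. The share of macrophages called MHC class II low in 6 M DTR was 87.5% with a limit of 10 UMIs, 92.6% with a limit of 40 and 88.3% in cells called female, and in 21 M B6 it was 87.8% with a mitochondrial limit of 5% and 96.2% in cells called male. Genes higher in the low class numbered 219 with DESeq2, 94 without the library term, 243 with the 5% limit and 1128 with library size scaling, and genes lower 238, 437 and 420 under the last 3. Leaving out a library gave 300 to 434 higher and 554 to 684 lower. Without cells of 50 or more haemoglobin UMIs the log2 fold changes turned to -0.14 for *Hbb-bs*, -0.55 for *Hba-a1*, -0.45 for *Hbb-bt* and -0.47 for *Hba-a2*. The log2 ratio of *Csf2* in 6 M DTR over 6 M WT was 0.36 in cells called male. With a minimum of 20 CPM, 34 genes were at least 2-fold higher and 54 at most 0.5-fold in 6 M DTR, and 166 and 152 in 21 M B6. With 100 CPM, 6 and 15 passed in 6 M DTR and 58 were higher in 21 M B6. In female cells 39 genes were at most 0.5-fold in 6 M DTR, and in male cells 155 in 21 M B6. The share of MHC class II low macrophages with a *Lyve1* UMI (6 M WT, then 6 M DTR, then 21 M B6) was 57.6%, 35.9% and 77.4% at 1500 UMIs per cell, 74.1%, 51.9% and 92.9% at 6000, 80.2%, 57.2% and 94.7% without thinning, and 50.5%, 33.0% and 76.9% with 2 UMIs required, and the order of the libraries was the same in each for all 4 resident genes.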

Other observations

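Growth factors were split between the classes. Of 11 tested, 2 were higher in MHC class II low than in MHC class II high macrophages and 4 were lower, by the edgeR quasi-likelihood test with Benjamini-Hochberg adjustment; without TMM the counts were 4 and 3, and without the library term 0 and 0. *Igf1*, insulin-like growth factor 1, was at 73.6, 85.8 and 123 CPM in the low class (6 M WT, then 6 M DTR, then 21 M B6) against 21.7, 60.1 and 26.2 CPM in the high class (log2 0.97 ± 0.26). *Bmp2*, a bone morphogenetic protein, was the other, at 1.82 ± 0.35, and was more abundant in tenocytes, at 449, 350 and 472 CPM. *Areg*, amphiregulin, was at 122, 128 and 58.7 CPM in the low class against 1674, 773 and 126 CPM (log2 -2.86 ± 0.31), and *Vegfa*, *Ereg* and *Tgfb1* were lower too. Of 12 immediate early genes 5 were higher and 2 lower (7 and 0 without TMM, 4 and 0 with DESeq2, 0 and 0 without the library term), led by *Jun* at 1.45 ± 0.21 and *Egr1* at 1.19 ± 0.18. Of 14 heat shock genes 3 were higher and none lower, and without the library term none was called. Of 7 alternative activation genes 1 was higher, the ficolin *Fcna* at 1.26 ± 0.28, and 3 were lower, against 0 and 1 without the library term.

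Of 5 tested cell cycle genes 2 were lower, with *Mki67*, a marker of dividing cells, at 105, 75.5 and 53.9 CPM in the low class against 186, 169 and 110 CPM in the high class (log2 -1.28 ± 0.16). Without TMM or without the library term 1 cell cycle gene was lower, and without 6 M WT 3 were. Of 7 iron genes, the ferritin chains *Fth1* and *Ftl1* were lower, at -0.68 ± 0.07 and -0.50 ± 0.08, while without TMM 2 iron genes were higher and 2 lower. Of 12 lipid handling genes 3 were lower, with *Lgals3*, galectin-3, at -1.46 ± 0.11. Without TMM 1 of them was higher and 1 lower. Without 21 M B6 or without the library term 1 was lower, and without 6 M WT or without 6 M DTR 5 were. Of 4 osteoclast genes, *Ctsk* was higher at 1.67 ± 0.27 and *Dcstamp*, a cell fusion protein, lower at -5.74 ± 0.49. Without the library term 0 osteoclast genes were higher and 1 lower. Without 6 M WT 1 was higher and 2 lower of 5 tested, and without 6 M DTR 2 were higher and 1 lower of 3. Of 3 epitenon genes 2 were higher, *Ccn3* and *Clec3b*, both more abundant in tenocytes, but none was called without macrophages of 10 or more fibroblast UMIs, without 6 M DTR or without the library term. Of 3 endothelial genes 1 was lower, *Fabp4*, which was not called without the library term, and none of 2 neutrophil and 8 tenocyte genes was called.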
